A study of Mus musculus with 6 samples.

Results

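Expression of Psme1, Adrm1, Zer1 and Dis3, genes that act in the removal of proteins or RNA, was described in mouse liver. They are 4 of the 122 genes to which the authors' sheet gives a symbol, among the 45220 features of the array, and each is measured by 1 feature. The sheet lists ratios of each extract mouse to the control average, so the genes were selected on differences between these same mice, and their values below are descriptions with no test. Liver RNA came from 6 male mice, 8 weeks old at the start, 1 mouse per 1-colour array. The extract group received an aqueous extract of Ziziphus jujuba, the jujube tree, at 6 mg/mL (n = 3), and the control group received water (n = 3). Both were gavaged with 500 µl each day for 20 days beside standard chow. The labels give no strain, and nothing in them says whether arrays were processed together.

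Cells degrade proteins mainly through the proteasome, a barrel-shaped core protease whose ends are closed by regulatory caps. A cap with ubiquitin receptors admits proteins tagged with ubiquitin, and other activators open the core without ubiquitin. Ubiquitin ligases choose which proteins receive the tag. The RNA exosome does the comparable work for RNA, trimming and degrading transcripts from the 3′ end. In liver these systems turn over enzymes and regulatory proteins, and the interferon-inducible form of the proteasome supplies peptides for antigen presentation.

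Psme1 encodes the alpha subunit of PA28, the interferon-inducible activator that opens the core without ubiquitin. Adrm1 encodes Rpn13, a ubiquitin receptor of the regulatory cap that also binds the deubiquitinase Uchl5. The authors' sheet files it under cell adhesion, after its older name. Zer1 encodes a substrate receptor of a cullin-RING ubiquitin ligase, known from human cells to recognise proteins that begin with glycine. Dis3 encodes the catalytic ribonuclease of the nuclear RNA exosome. In the RefSeq gene table of assembly GRCm38.p6, the accessions given in the sheet, NM_011189, NM_019822, NM_178694 and NM_028315, carry the same 4 symbols. Psme1 lies on chromosome 14 from 55578494 to 55581527 and Dis3 on chromosome 14 from 99076634 to 99099780. Zer1 lies on chromosome 2 from 30097283 to 30126287 and Adrm1 on chromosome 2 from 180171588 to 180176283. The part of each transcript that the feature probes is not analysed here.

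The 4 genes had higher means together after normalization, but they were selected on these differences, and no shared cause is read from that. The sequences just upstream of a transcription start of each gene are shown because proteasome genes are known targets of the factors Nfe2l1 and Nfe2l2. They are from RefSeq (GRCm38.p6), 5′ to 3′ on the strand of the gene, and capitals mark matches to any of 4 motifs. The motifs, searched on both strands from 250 bases before to 50 bases after the start, were GGGCGG (the GC box), CCAAT (the NF-Y box), TGACNNNGC (the core of the antioxidant response element, bound by Nfe2l1 and Nfe2l2) and GAAANNGAA (the core of the interferon-stimulated response element). For Zer1 and Dis3 the window lies within annotated genes, Zer1 itself and the oppositely oriented neighbour Pibf1, and only 30 bases around a match are shown.
Psme1, chr14:55578244-55578493, plus strand: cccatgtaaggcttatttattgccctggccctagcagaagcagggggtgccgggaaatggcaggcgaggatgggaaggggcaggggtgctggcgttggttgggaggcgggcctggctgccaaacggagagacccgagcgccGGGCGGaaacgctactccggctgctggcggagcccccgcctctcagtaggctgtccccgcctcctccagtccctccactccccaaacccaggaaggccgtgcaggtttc
Adrm1, chr2:180171338-180171587, plus strand: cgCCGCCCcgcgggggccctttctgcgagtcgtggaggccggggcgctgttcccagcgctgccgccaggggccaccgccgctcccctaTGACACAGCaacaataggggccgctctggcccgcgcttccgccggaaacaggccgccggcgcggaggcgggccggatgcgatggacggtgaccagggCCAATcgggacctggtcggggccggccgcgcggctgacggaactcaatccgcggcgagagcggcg
Zer1, chr2:30124622-30124651, minus strand: cttcagccgcctCCGCCCacgttcgcggcg
Dis3, chr14:99099838-99099867, minus strand: ccagaggaaagccCCGCCCaccggcgggag
Dis3, chr14:99099801-99099830, minus strand: ccaacactcgcCCAATcaccgcgaccgtcg

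All 4 promoters held the GC box, which 35.7% of the 32851 promoters in the table hold. Adrm1 had the antioxidant response element core at positions -162 to -154, counted from the first transcribed base, and 12.4% of promoters have a match. In Psme1 the interferon-stimulated core matched on the opposite strand at positions 11 to 19, within the transcript, and 8.56% of promoters have a match. The NF-Y box stood at -65 to -61 in Adrm1 and at -49 to -45 in Dis3, against 37.4% of promoters with a match. No match spans 2 motifs in these windows. A match is a description of letters and not a site of binding.

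The arrays differed in brightness, which bears on every value below. Features above an intensity of 100 numbered 11263 to 12130 on extract arrays and 10268 to 11337 on control arrays, and 9434 features exceeded 100 on all 6 (bright features). The upper quartile of all features was 99 to 123 on extract arrays. It was 102 on control array 3 but 41 on control arrays 1 and 2. By this measure control array 3 lay with the extract arrays. Without control array 3 the differences of the 4 genes were 0.52 to 0.74 (log2, normalized). All 4 genes were bright. The deposited median of bright features was 439, 648.5 and 569 on extract arrays 1, 2 and 3. On control arrays 1, 2 and 3 it was 444, 457 and 574. By that median extract array 1 lay with control arrays 1 and 2. On extract array 1, 130 bright features lay 2 log2 units or more below the median of the others. On each of the remaining arrays 0 to 2 did. Over bright features the array of extract mouse 1 had correlations of 0.956 to 0.960 with the remaining arrays, while pairs among those had 0.976 to 0.985. Intensities are given first as deposited, then after quantile normalization between the 6 arrays, as log2. With 3 arrays a group, their number sets the precision. Of the 34 liver cell type markers looked for, including 6 of hepatocytes, only the sinusoidal endothelial gene Fcgr2b carries a symbol here, so the tissue label was not checked against its markers. Deposited Fcgr2b was 44, 653 and 821 in extract mice 1, 2 and 3, against 139, 214 and 807 in control mice 1, 2 and 3. In whole liver, fewer cells of a type and less RNA per cell cannot be told apart.

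All 4 genes had higher mean values in extract livers than in control livers, by 1.38-fold to 1.71-fold after normalization, except that scaling to the median or 75th percentile of all features gave lower or, for Dis3, nearly equal means. In Psme1 and Zer1 all 3 extract mice lay above all 3 controls. In Adrm1 and Dis3 extract mice 2 and 3 lay above all controls and extract mouse 1 lay among or below them. The count of 2 in 4 genes without overlap is set beside 900 of 9434 bright features (9.54%) and 1956 of all 45220 features (4.33%) with all extract arrays above all controls. Since the genes come from a list made from these differences, nothing is read from that comparison. The median difference was 0.63 over the 4 genes and -0.01 over bright features (log2, normalized). In the whole-table comparison with limma, 0 of 45220 features (0%) passed an adjusted p of 0.05, and 2313 had an unadjusted p below 0.05. A variant of that limma fit with trend and robust settings also gave 0, with 2199 at an unadjusted p below 0.05.

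Psme1, the activator gene, had the widest gap between the groups after quantile normalization, while with local deviations subtracted the gap was wider for Zer1 (0.38) than for Psme1 (0.25). Its deposited intensity was 373, 439 and 402 in extract mice 1, 2 and 3, against 209, 198 and 263 in control mice 1, 2 and 3. The means were 405 ± 33.1 in extract livers and 223 ± 34.8 in controls (SD, n = 3 each), a ratio of 1.81. Every extract mouse lay above every control without scaling and after quantile normalization. With arrays scaled to the median or 75th percentile of all features the groups overlapped. After normalization Psme1 averaged 8.58 ± 0.15 in extract livers and 7.92 ± 0.06 in controls (log2, SD, n = 3 each), a difference of 0.66 or 1.59-fold. The lowest extract mouse stood 0.51 above the highest control, and the SD among controls was smaller than in 93.8% of bright features. Only 0.827% of bright features had a larger difference, which describes where a gene chosen on this contrast lies and is not a test.

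Adrm1, the ubiquitin receptor gene, varied within both groups. Deposited Adrm1 was 153, 402 and 339 in extract mice 1, 2 and 3, against 114, 195 and 213 in control mice 1, 2 and 3. The groups overlapped, because extract mouse 1 lay below controls 2 and 3. Its means were 298 ± 129 in extract livers and 174 ± 52.7 in controls (SD, n = 3 each). Normalized Adrm1 averaged 7.98 ± 0.57 in extract livers and 7.52 ± 0.38 in controls (log2, SD, n = 3 each), a difference of 0.46 or 1.38-fold. This difference was within the SD among extract mice. It was 0.80 without extract mouse 1, 0.28 without extract mouse 2 and 0.25 without control mouse 1.

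**Figure D1:**
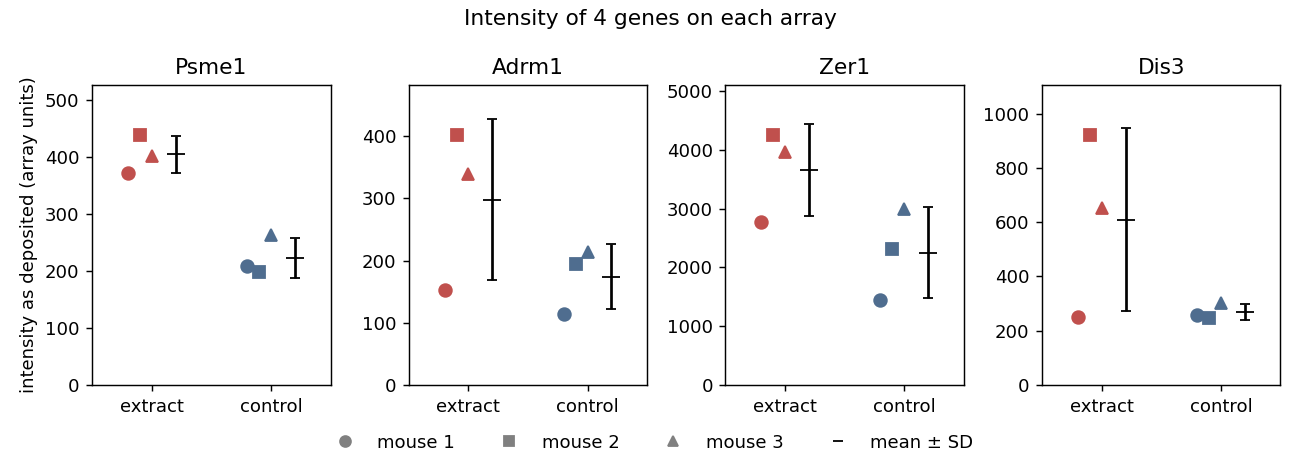
Deposited intensity (linear, array units) of each gene on each array, extract left and control right, with the symbol giving the mouse and the black mark the mean ± SD of 3. Psme1 shows no overlap between groups, while extract mouse 1 falls inside the control range in the other 3 panels.

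For Zer1, the ligase receptor gene, the deposited and normalized values gave different pictures. Deposited Zer1 was 2771, 4252 and 3955 in extract mice 1, 2 and 3, against 1444, 2319 and 2989 in control mice 1, 2 and 3. Without scaling the groups overlapped, since extract mouse 1 lay below control mouse 3. The means were 3659 ± 784 in extract livers and 2251 ± 775 in controls (SD, n = 3 each). Normalization brought the extract mice together, at 11.71, 11.75 and 11.81, against 10.70, 11.38 and 11.40 in controls (log2), and the groups no longer overlapped. The difference was 0.60 or 1.51-fold, with an SD of 0.05 in extract livers and 0.40 in controls (n = 3 each). Control mouse 1 differed by -0.69 from the mean of the other controls, and only 1.14% of bright features were as low or lower in that mouse. Without it the difference was 0.37.

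Dis3 had the largest mean difference of the 4 genes after normalization, and it rested on extract mice 2 and 3. Deposited Dis3 was 252, 922 and 653 in extract mice 1, 2 and 3, against 258, 247 and 301 in control mice 1, 2 and 3. Extract mouse 1 lay inside the control range, and the other extract mice lay above it. The means were 609 ± 337 in extract livers and 269 ± 28.5 in controls (SD, n = 3 each). Normalized Dis3 averaged 8.97 ± 0.75 in extract livers and 8.19 ± 0.07 in controls (log2, SD, n = 3 each), a difference of 0.77 or 1.71-fold. Without extract mouse 1 the difference was 1.21, without extract mouse 2 it was 0.48, and without control mouse 3 it was 0.74. The SD among extract mice was exceeded by 3.43% of bright features, and the SD among controls by 91.8%.

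Set against the mean of the controls, the 4 genes had 2 kinds of profile in extract mouse 1. In that mouse Psme1 was 0.83 and Zer1 was 0.55 above the control mean, while Dis3 was -0.07 and Adrm1 was -0.19 (normalized log2). In extract mouse 2 all 4 genes were above it, by 0.55 for Psme1, 0.59 for Zer1, 0.82 for Adrm1 and 1.35 for Dis3. In extract mouse 3 they were above it by 0.61 for Psme1, 0.65 for Zer1, 0.76 for Adrm1 and 1.04 for Dis3. Relative to extract mice 2 and 3, extract mouse 1 was lower by a log2 difference of -1.27 for Dis3 and -0.98 for Adrm1, and 2.76% and 4.35% of bright features were as low or lower there. The median over bright features was 0.04. Fcgr2b was also low in extract mouse 1, and its part in these values was not tested.

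**Figure D2:**
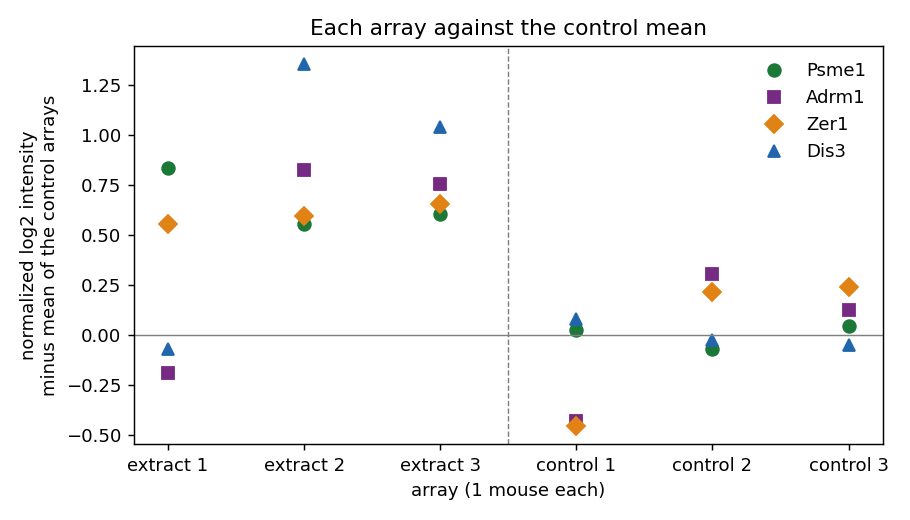
Normalized log2 intensity of each gene minus the mean of the 3 control arrays (y axis), for extract arrays on the left and control arrays on the right. Psme1 and Zer1 lie at 0.55 or more on every extract array, while Adrm1 and Dis3 lie at -0.19 and -0.07 on the array of extract mouse 1.

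The agreement between genes was mixed. Over the 6 arrays Pearson's r of the normalized values was 0.831 for Adrm1 and Dis3, 0.729 for Psme1 and Zer1, 0.725 for Adrm1 and Zer1, and 0.282 for Psme1 and Adrm1. Zer1 and Dis3 had 0.524, and Psme1 and Dis3 had 0.457. All these values include the difference between the groups that the genes were chosen for. With each group's mean removed, r was 0.77 for Adrm1 and Dis3 and 0.62 for Adrm1 and Zer1. It was -0.89 for Psme1 and Adrm1 and -0.92 for Psme1 and Dis3. For Psme1 and Zer1 it was -0.21, and for Zer1 and Dis3 it was -0.007. The points are 6 arrays that share their brightness, and the values are given as descriptions. Extract array 1 was the highest extract array for Psme1, at 8.75 against 8.47 and 8.52. It was the lowest for Adrm1, at 7.33 against 8.34 and 8.27, and for Dis3, at 8.12 against 9.55 and 9.23. The weight of that array in the correlations was not tested.

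Among the other 121 genes with a symbol, those whose normalized values were most like each gene's over the 6 arrays were found by Pearson's r. For Psme1 they were Cyp4a12a (r = 0.996), a fatty acid omega-hydroxylase, the bitter taste receptor Tas2r123 (0.988) and Xkr5 (0.986). For Zer1 they were the histone variant gene H2al1o (0.976), Gnas (0.921), the stimulatory G protein alpha subunit, and the nucleosome-binding protein Hmgn5 (0.901). For Adrm1 they included the kinase Rps6ka5 (0.917) and the sugar kinase Galk2 (0.879). For Dis3 they included the olfactory receptor Olfr792 (0.905) and the long noncoding RNA Mirt2 (0.886). With local deviations on the array subtracted, as described next, these 10 values were 0.77 to 0.97. All 121 genes stand in the same sheet of differences between these mice, and nothing is read from the likeness.

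Position on the array moved with part of the differences. For each gene the deviation of its surroundings was taken as the median, over an 11 by 11 neighbourhood without the gene itself, of each feature's difference from its own mean over the arrays. Around Psme1 the surroundings were 0.16, 0.08 and 0.15 on extract arrays 1, 2 and 3, against -0.18, -0.04 and -0.17 on control arrays 1, 2 and 3. The neighbours of Psme1 were thus higher by 0.26 in extract livers, and subtracting them took the difference of Psme1 to 0.41, or 1.33-fold, with all extract mice still above all controls. Around Zer1 the surroundings differed by -0.22, and its difference after subtraction was 0.82 or 1.76-fold. The surroundings of Dis3 differed by 0.13 and those of Adrm1 by 0.03, and after subtraction the differences were 0.65 for Dis3 and 0.43 for Adrm1. With local deviations subtracted, 2 of the 4 genes, Psme1 and Zer1, still had groups without overlap, against 10.6% of bright features.

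**Figure D3:**
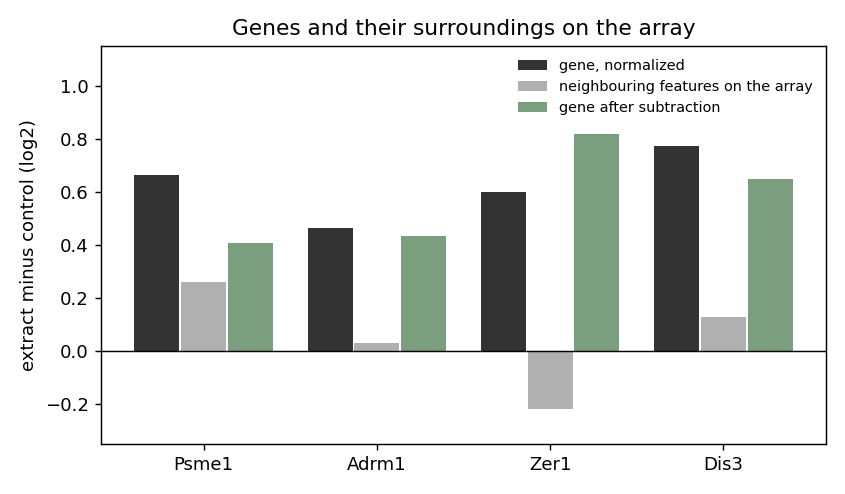
Extract-minus-control difference (log2) of each gene after normalization (dark bars), of the neighbouring features on the array (grey) and of the gene after subtraction of its neighbours (green). Neighbours differ most around Psme1 (0.26) and Zer1 (-0.22).

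The scaling between arrays changed how many genes had groups without overlap. Without scaling only Psme1 did, against 14.1% of bright features and 12.0% of all features, and the differences were 0.87 for Psme1, 0.71 for Adrm1, 0.74 for Zer1 and 0.99 for Dis3. With arrays scaled to the 75th percentile of bright features, Psme1, Zer1 and Dis3 did, against 10.7% of bright features, and the lowest extract value of Dis3 stood only 0.0101 above the highest control (log2). When extract mouse 1 was left out, all 4 genes had groups without overlap, against 14.0% of bright features. After quantile normalization that mouse alone made the groups overlap in Adrm1 and Dis3. The count thus followed from leaving it out, and nothing is read from it. Scaling to the median or the 75th percentile of all features turned Psme1, Adrm1 and Zer1 to lower means in extract livers, from -0.29 to -0.13, and left Dis3 at -0.005 and 0.002. These scalings, chosen after seeing the data, took the median difference of bright features to -0.82 and -0.81. Relative to that median the differences were 0.69 for Psme1, 0.53 for Adrm1, 0.56 for Zer1 and 0.82 for Dis3 under both. They were the same without scaling, because dividing each array by a constant shifts a gene and the median of bright features alike. Nothing is read from that sameness.

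**Figure D4:**
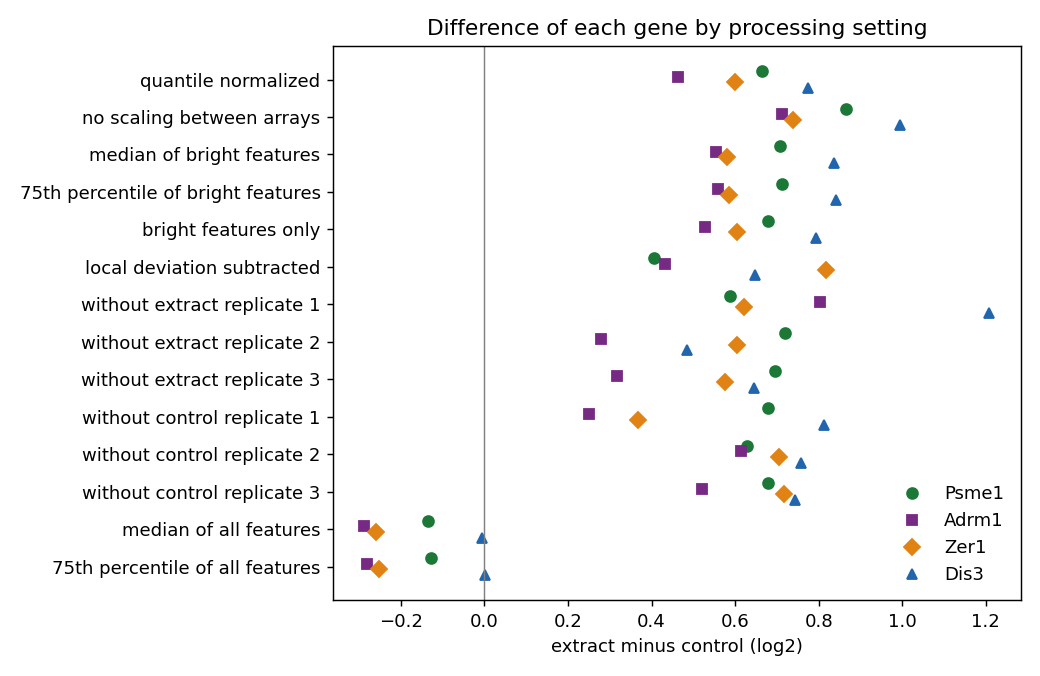
Extract-minus-control difference (log2) of each gene under each way of scaling the arrays or leaving 1 array out, with the setting of the text on top. The values are above 0 except under scaling to the median or 75th percentile of all features, where they run from -0.29 to 0.002.

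The lists of proteasome, ubiquitin and RNA decay genes that accompany the 4 genes have 1 further member with a symbol here, Usp35, a deubiquitinase that removes ubiquitin from proteins. Deposited Usp35 was 256, 250 and 267 in extract mice 1, 2 and 3, against 140, 172 and 155 in control mice 1, 2 and 3. All extract mice lay above all controls, as deposited and after normalization, against 14.1% and 9.54% of bright features. Usp35 stands in the same sheet of differences between these mice, so nothing is read from that comparison. Its normalized difference was 0.51 (SD 0.23 in extract livers and 0.22 in controls, n = 3 each) and 0.19 with local deviations subtracted. The core subunits of the proteasome, Psme2, the partner of Psme1, Uchl5, the partner of Adrm1, and the other exosome subunits carry no symbol in the sheet and are not analysed here.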

How the data were processed

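Liver RNA of 6 mice was labelled with Cy3 and hybridised to 1-colour Agilent arrays, per the labels. Images were read with Agilent Feature Extraction, per the submitters' processing notes. The deposited values are intensities, 1 per feature and array, in whole numbers, some of them negative. How the authors corrected background or scaled arrays is not stated in the labels or headers. The authors also deposited a sheet of ratios of treated to control mice, per the file headers, from which only symbols, accessions and feature numbers were used here. The feature number gave the row of each gene, and whether a feature measures its gene was not tested.

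Intensities were quantile normalized between arrays, values under 1 were set to 1, and log2 was taken. That floor raises the lowest values and can shrink the differences of dim features between arrays. The whole table was fitted with limma 3.58.1 (lmFit and eBayes, two-sided, Benjamini-Hochberg over 45220 features) in R 4.3.3, and the steps were tested on simulated data. Features were placed on the array in 532 rows of 85, and local deviations used features above 100 on at least 4 arrays. Genes named beyond the 4 are the 3 with the highest r to each and the members of the lists of proteasome, ubiquitin and RNA decay genes, and 1 gene that this rule names is not reported here. Alternatives changed scaling, floor, filter, position, replicate block and arrays. The genes and lists were chosen with earlier results of these data known. The labels name separate mice, so n counts mice.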

Additional observations from a re-analysis of the deposited data

How the results depend on the processing

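The differences between extract and control livers kept their direction for all 4 genes when the scaling was left out or set on bright features, and under the other choices of filter, floor, position on the array, replicate block and 1 array left out. For Psme1 the difference was 0.866 without scaling, 0.406 with local deviations subtracted and 0.311 with both that and extract mouse 1 left out. With the median of all features the differences were -0.134 for Psme1, -0.287 for Adrm1, -0.260 for Zer1 and -0.005 for Dis3. With the 75th percentile of all features they were -0.127, -0.280, -0.253 and 0.002 in the same order. Leaving out each array in turn gave differences of 0.587 to 0.718 for Psme1, 0.251 to 0.803 for Adrm1, 0.368 to 0.717 for Zer1 and 0.484 to 1.208 for Dis3.

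The 2 genes with groups that do not overlap became 3 when arrays were scaled to the 75th percentile of bright features, 1 without scaling, 0 with the median or 75th percentile of all features, 4 with local deviations subtracted and extract mouse 1 left out, and 2 to 4 when single arrays were dropped, with 4 for extract mouse 1. The 1956 features of the whole array with all extract arrays above all controls became 5442 without scaling, 5439 and 5501 with the median and 75th percentile of bright features, and 1200 with a floor of 16. Among bright features alone, where fewer are counted, there were 980, and 996 with local deviations subtracted. There were 1002 and 967 with the median and 75th percentile of all features, and 3198 to 3697 with 1 array left out, where fewer arrays must separate. With local deviations subtracted and extract mouse 1 left out there were 1467.

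The limma count of 0 features became 31 without scaling, 1 in the fit of bright features, 9 with extract mouse 1 left out and local deviations subtracted, and 0 to 190 over the fits that leave out 1 array, of which the fit lacking extract mouse 1 gave 190 and that lacking extract mouse 3 gave 41. The cause of these changes was not tested. With the replicate block the count was 0. The gene differences were by design the same, 0.665 for Psme1, 0.463 for Adrm1, 0.599 for Zer1 and 0.774 for Dis3. The correlation of deviations from the group mean between same-numbered mice was 0.04, 0.15 and 0.25, against -0.195 to 0.031 for extract and control mice of other numbers. All 3 were above the rest, the lowest barely, and pairing, not in the labels, was not tested. Scaling to all features and the fit that combines position with a left-out mouse were chosen after seeing the data.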
